A study of Mus musculus with 6 samples.

Results

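The aldehyde dehydrogenase (ALDH) family was followed in RNA sequencing of mouse gastrocnemius muscle that carried a constitutively active aryl hydrocarbon receptor (AHR). The 10 members were taken by gene symbol (Aldh1a1, Aldh1b1, Aldh1l1, Aldh2, Aldh3a1, Aldh3a2, Aldh4a1, Aldh6a1, Aldh7a1 and Aldh9a1), out of 49315 genes in the count table and 21 ALDH genes in all. The list was drawn up with earlier results of these data known. All 10 were in the table and all 10 passed the filter on low counts. Male C57BL6J mice received AAV9, an adeno-associated virus that infects muscle, by injection into the gastrocnemius at 5 months of age, and the muscles were taken 5 months later. In the AAV9-HSA-CAAHR group (3 muscles, termed CAAHR) the virus encoded mouse AHR from which the ligand binding domain had been deleted, so that it acts without a ligand. In the AAV9-HSA-GFP group (3 muscles, termed GFP) it encoded the green fluorescent protein ZsGreen1. In both, the human skeletal actin (HSA) promoter limits the transgene to myofibres, so both groups had been infected and uninfected muscle was not analysed here.

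ALDH enzymes oxidise aldehydes to carboxylic acids, using NAD or NADP and a cysteine in the active site. Aldh3a1 belongs to the classical set of genes that AHR switches on in liver and epithelia, together with the cytochromes P450 of family 1. Other members work in mitochondria, where Aldh2 removes acetaldehyde and the reactive aldehydes that come from lipid peroxidation, and Aldh4a1, Aldh6a1 and Aldh7a1 each carry out a step of amino acid breakdown. The comparison of CAAHR with GFP muscle asked whether these transcripts differed when AHR was active in myofibres.

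Library totals ranged from 43432994 to 58825752 counts. Ahr, the targeted gene, whose counts can include the transgene, was at 9.97, 22.8 and 17.3 CPM in CAAHR replicates 31, 34 and 36. It was at 2.47, 2.55 and 1.87 CPM in GFP replicates 42, 43 and 46, below every CAAHR library. CPM is the usual depth-scaled unit of RNA sequencing, a read count in proportion to the library total, here with TMM scaling between libraries. Of 15847 genes tested with edgeR's quasi-likelihood test, 1205 had a Benjamini-Hochberg adjusted p under 0.05 (7.60%), 481 of them higher in CAAHR (3.04%) and 724 lower (4.57%). That balance moved with the scaling. It was 876 higher and 600 lower with library size alone, and 358 higher and 990 lower with upper quartile scaling. An unadjusted p under 0.05 was reached by 3781 of the 15847 genes tested (edgeR quasi-likelihood). The summed CPM of 9 slow fibre markers was 2818, 661 and 2546 in CAAHR replicates 31, 34 and 36, against 235, 343 and 474 in GFP replicates 42, 43 and 46. For 8 B cell and plasma cell markers the sum was 11.2 to 19.8 CPM in CAAHR and 145 to 579 CPM in GFP. The part of such cells in the differences was not tested. By quantitative PCR the study found selected immune genes not lower in CAAHR muscle than in mice given no virus. From this the paper attributed a local immune response in muscle to the GFP virus. Nothing in the labels said whether the libraries came from separate mice, so p-values measure only the spread between these samples. In bulk muscle, fewer cells of a type and less RNA per cell cannot be told apart.

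Of the 10 members, 2 were higher in CAAHR (Aldh2 and Aldh7a1) and 2 lower (Aldh1a1 and Aldh1l1) at an adjusted p under 0.05, beside 7.60% of all genes tested. In 7 members the groups did not overlap, 4 higher and 3 lower in CAAHR, beside 29.9% of all genes tested (15.0% higher and 14.9% lower). No member changed by more than 2-fold, and the median log2 fold change over the 10 was 0.33, against 0.01 over all genes tested. The plot of member transcripts by library shows each value.

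**Figure D1:**
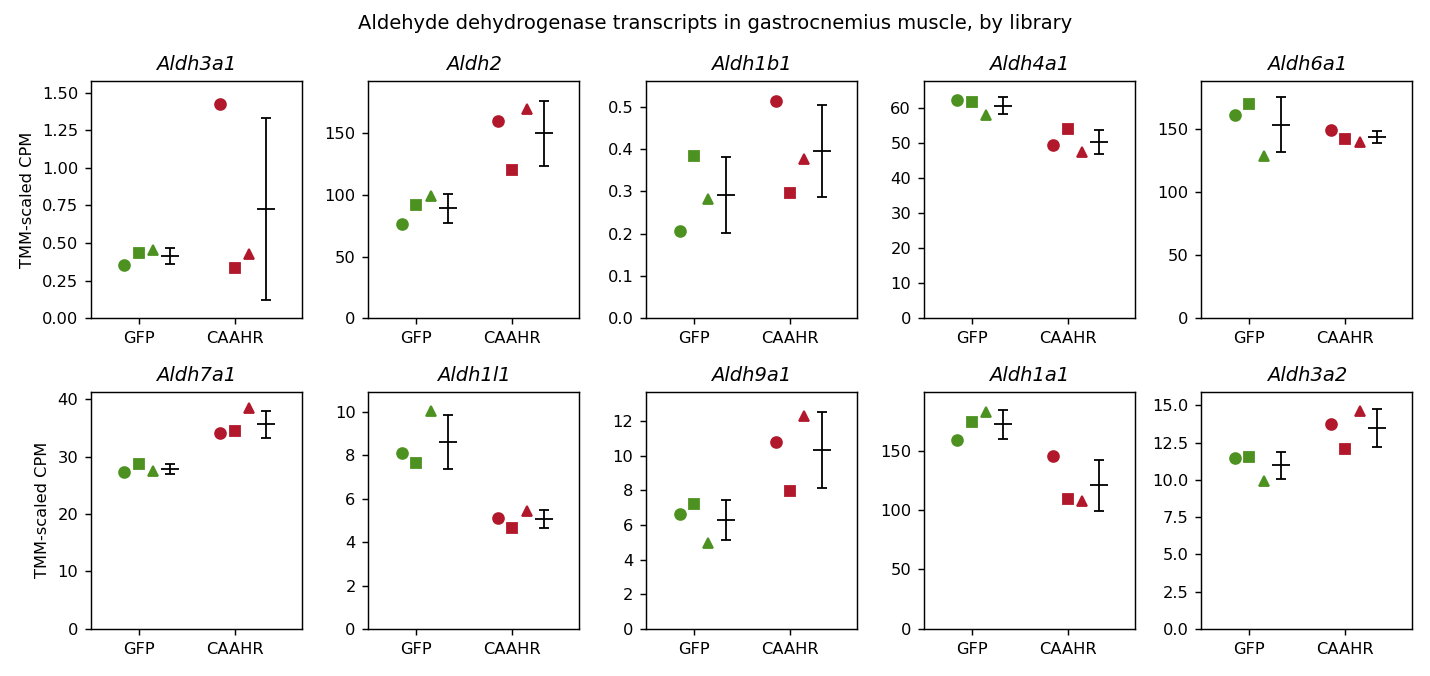
TMM-scaled CPM (vertical axes, each from 0) of the 10 ALDH members in 3 GFP libraries (green: circle 42, square 43, triangle 46) and 3 CAAHR libraries (red: circle 31, square 34, triangle 36), with the mean and SD beside them in black. Aldh2 was between 120.1 and 169.8 CPM in CAAHR and between 76.1 and 99.0 in GFP, while for Aldh3a1 a single CAAHR library, at 1.42 CPM, was above the rest.

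Promoter sequence is shown for the members that passed the test and had one in the RefSeq table used here (GRCm38.p6), where 7 of the 10 members were matched, and for Aldh9a1 and the near copy Aldh1a7, which were chosen after their values were seen. Each is the 250 bases before an annotated start, on the gene's strand. Capitals mark the CCAAT box (CCAAT or its complement ATTGG) in Aldh1l1, the octamer ATGCAAAT in Aldh1a1 and Aldh1a7, and the AHR core (GCGTG or its complement CACGC) in Aldh9a1. The windows are chr6:90550543-90550792 (plus strand), chr19:20601718-20601967 (plus), chr19:20727557-20727806 (minus) and chr1:167349741-167349990 (plus).
Aldh1l1: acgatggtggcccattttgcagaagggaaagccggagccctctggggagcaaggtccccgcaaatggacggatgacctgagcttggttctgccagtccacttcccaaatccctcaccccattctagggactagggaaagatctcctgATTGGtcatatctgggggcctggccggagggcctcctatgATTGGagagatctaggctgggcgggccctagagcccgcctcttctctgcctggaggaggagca
Aldh1a1: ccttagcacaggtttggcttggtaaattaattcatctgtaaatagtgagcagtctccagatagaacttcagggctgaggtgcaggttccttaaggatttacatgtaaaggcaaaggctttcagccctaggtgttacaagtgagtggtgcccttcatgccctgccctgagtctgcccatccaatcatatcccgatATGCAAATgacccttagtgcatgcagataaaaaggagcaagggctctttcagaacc
Aldh1a7: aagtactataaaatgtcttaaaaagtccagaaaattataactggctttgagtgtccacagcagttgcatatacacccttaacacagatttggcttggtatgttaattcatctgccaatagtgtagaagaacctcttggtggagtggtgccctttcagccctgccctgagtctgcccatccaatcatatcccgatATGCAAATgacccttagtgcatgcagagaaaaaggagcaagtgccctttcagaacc
Aldh9a1: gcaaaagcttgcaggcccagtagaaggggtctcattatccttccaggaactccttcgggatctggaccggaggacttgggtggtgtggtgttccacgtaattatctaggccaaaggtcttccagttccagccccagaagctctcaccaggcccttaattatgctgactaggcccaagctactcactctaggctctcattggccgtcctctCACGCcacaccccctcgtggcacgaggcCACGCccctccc

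The AHR core GCGTG, read on both strands, was in the windows of 3 of the 7 matched members. Aldh2, Aldh7a1 and Aldh3a1 had no window here, so the count does not cover them. Aldh9a1 held 2 copies, 40 and 12 bases before the start. Aldh4a1 also held 2, at 185 and 55 bases, and Aldh3a2 held 1, at 117 bases. Among 32851 promoter windows of the same length 28.2% held this core, and among the 14382 of genes tested 42.6% did. No copy was in the windows of Aldh1l1, Aldh1a1, Aldh1b1 or Aldh6a1. Of the 8 other ALDH genes with a window, Aldh18a1, Aldh1a2 and Aldh3b3 held the AHR core. Among the matched members the antioxidant response core TGACNNNGC was in Aldh9a1 only, beside 10.2% of all windows. The CCAAT box was in every matched member but Aldh1b1, beside 33.8% of all windows, so it does not set Aldh1l1 apart. In the printed windows of Aldh1a1, Aldh1a7 and Aldh9a1 it is left in lower case. The octamer was in 1.6% of all windows. The Aldh1a1 and Aldh1a7 windows shared 183 of 231 aligned bases (79.2%), and both held the octamer. It was also in the windows of Aldh1a2 and Aldh8a1, so it was not particular to this pair. Aligned in the same way, Aldh1a1 shared 61.8% with Aldh1l1 and 60.1% with Aldh9a1. The table gave Aldh1a1 a further start, whose window (chr19:20492333-20492582, plus strand) held none of the 4 motifs and is not shown.

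Aldh3a1 (ENSMUSG00000019102, chr11:61207537-61218421 on GRCm38), the member tied most closely to AHR, was scarce in this muscle. It was at 1.42, 0.333 and 0.427 CPM in CAAHR replicates 31, 34 and 36, which were 72, 19 and 26 counts. In GFP replicates 42, 43 and 46 it was at 0.352, 0.433 and 0.453 CPM, or 17, 18 and 24 counts. The groups overlapped, and the higher CAAHR mean came from replicate 31. The log2 fold change was 0.80 ± 0.55 (SE, n = 3 per group; 95% interval -0.44 to 2.04), with an adjusted p of 0.422 by edgeR's quasi-likelihood test, and without CAAHR replicate 31 it was -0.12.

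Other genes of the AHR set moved much further. Of 10 genes listed, 6 were tested and 5 were higher in CAAHR, beside 3.04% of all genes; Aldh3a1 was the remaining one. Cyp1a1, the monooxygenase most used as a readout of AHR, was at 1231, 1680 and 1517 CPM in CAAHR and at 6.78, 7.74 and 5.85 CPM in GFP. Its log2 fold change was 7.77 ± 0.20 (edgeR quasi-likelihood, adjusted p = 1.11e-07). The log2 fold changes of the other genes were 7.69 for Ahrr, the AHR repressor, 6.36 for Cyp1b1, 3.21 for the quinone reductase Nqo1 and 2.12 for the ADP-ribosyltransferase Tiparp. CAAHR replicate 31, the library with the highest Aldh3a1, had the lowest level of all 5 and of Ahr among the CAAHR libraries. Gsta1 and Ugt1a6a were at 3 counts or fewer in every library.

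**Figure D2:**
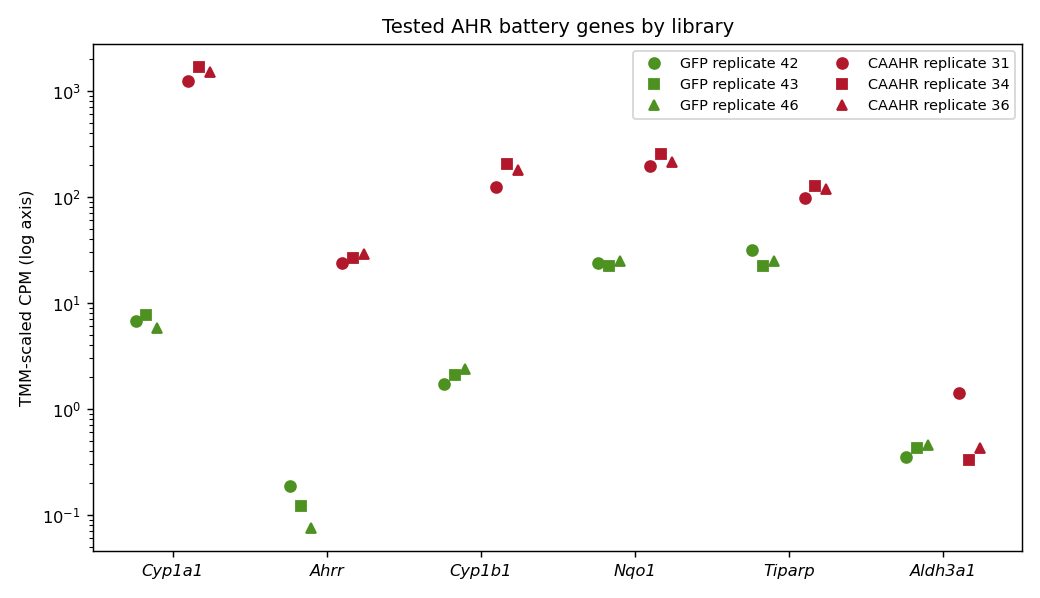
TMM-scaled CPM on a log axis for the 6 tested genes of the AHR set, with a point for each of 3 GFP (green) and 3 CAAHR (red) libraries. Cyp1a1, Ahrr, Cyp1b1, Nqo1 and Tiparp were higher in every CAAHR library than in every GFP library, while for Aldh3a1 the groups overlapped.

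Aldh2 (ENSMUSG00000029455, chr5:121566027-121593824), the main mitochondrial enzyme for acetaldehyde, was higher in CAAHR. It was at 160.0, 120.1 and 169.8 CPM in CAAHR replicates 31, 34 and 36 and at 76.1, 92.1 and 99.0 CPM in GFP replicates 42, 43 and 46. Every CAAHR library was above every GFP library, with CAAHR replicate 34 nearest to them. The log2 fold change was 0.75 ± 0.15 (SE, n = 3 per group; 95% interval 0.41 to 1.09), a 1.68-fold difference with an adjusted p of 0.0180 (edgeR quasi-likelihood). Leaving out replicate 31 or 36 of CAAHR, or replicate 42 of GFP, took it past the threshold, to an adjusted p of at most 0.0757 (edgeR quasi-likelihood). The study had named Aldh2 from these libraries, so its selection is not independent of them. The paper also reported such alterations, Aldh2 among them, as abolished in smoke-exposed muscle lacking AHR, in other libraries not analysed here. There the comparison was with smoke-exposed littermates that kept AHR. By the paper's account those muscles were harvested once AHR activation had returned to baseline after the last exposure. Gm42879, whose exons overlap those of Aldh2 by a summed 130 bases on the other strand, had at most 5 counts in any library.

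The slow fibre markers and Aldh2 ranked the libraries alike but for CAAHR replicates 31 and 36. The marker sum and Aldh2 were both lowest in GFP replicate 42 and both higher in every CAAHR library than in every GFP library, and CAAHR replicate 34 was the lowest of its group in both. None of the 9 slow fibre markers passed the test, but 8 had an unadjusted p under 0.05, beside 3781 of all 15847 genes tested. The median log2 fold change of the 9 was 2.36. With their mean log2 CPM as a covariate the log2 fold change of Aldh2 was 0.16 and its adjusted p 0.636 (edgeR quasi-likelihood). The covariate was itself higher in every CAAHR library than in every GFP library, so the level of slow fibre markers and the group cannot be told apart. Across the 6 libraries, the genes most like Aldh2 in log2 CPM among 12307 compared were Fxyd6, an ion pump regulator (Pearson r = 0.996), P3h4, which takes part in collagen modification (r = 0.995), and Fzd9, a Wnt receptor (r = 0.992). The libraries share the group difference, and 160 genes had r over 0.95.

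**Figure D3:**
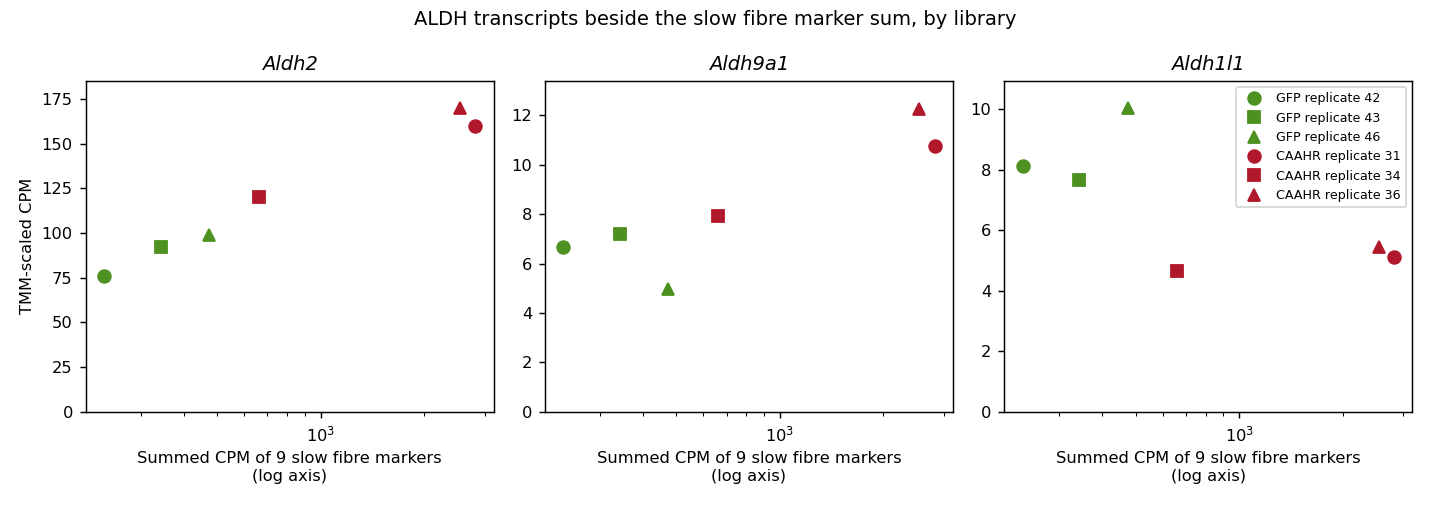
TMM-scaled CPM of Aldh2, Aldh9a1 and Aldh1l1 (vertical axes, from 0) against the summed CPM of 9 slow fibre markers (log axis) in each of 6 libraries, GFP in green and CAAHR in red. The 2 CAAHR libraries with marker sums of 2818 and 2546 had the highest Aldh2, and CAAHR replicate 34, at 661, lay between them and the GFP libraries, whereas Aldh1l1 in that library was at 4.64 CPM, the lowest of all 6.

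Aldh1b1 (ENSMUSG00000035561, chr4:45799022-45804604), a mitochondrial relative of Aldh2 that also takes acetaldehyde, had only 17 to 26 counts in the CAAHR libraries and 10 to 16 in the GFP libraries. It was at 0.514, 0.298 and 0.377 CPM in CAAHR and at 0.207, 0.385 and 0.283 CPM in GFP. The groups overlapped, and the log2 fold change was 0.44 ± 0.40 (95% interval -0.45 to 1.33; edgeR quasi-likelihood, adjusted p = 0.555). Of 15 tested alcohol dehydrogenases and aldehyde reductases, which interconvert aldehydes and alcohols, none passed the test. An unadjusted p under 0.05 was found for 2 of them, beside 3781 of all 15847 genes tested. The median log2 fold change of the 15 was 0.06. The gene with the smallest p was Akr7a5 at 0.22 ± 0.09 (edgeR quasi-likelihood, adjusted p = 0.168).

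Among the mitochondrial enzymes of amino acid breakdown, Aldh7a1 was higher and the others did not pass the test. Aldh7a1 (ENSMUSG00000053644), which oxidises the semialdehyde formed in lysine breakdown, was at 34.1, 34.4 and 38.4 CPM in CAAHR and at 27.3, 28.8 and 27.5 CPM in GFP. The groups did not overlap, and the spread within each was small. The log2 fold change was 0.36 ± 0.09 (95% interval 0.15 to 0.56; edgeR quasi-likelihood, adjusted p = 0.0431), and leaving out any library but CAAHR replicate 34 took it past the threshold, to an adjusted p of at most 0.163. The call was also lost with upper quartile scaling (0.28, edgeR quasi-likelihood, adjusted p = 0.0824). It was lost too with the slow fibre covariate (0.29 ± 0.17, edgeR quasi-likelihood, adjusted p = 0.416), where marker level and group cannot be told apart. Its exons overlap those of Phax on the opposite strand by a summed 343 bases, and the methods did not say if the library kit kept strand. Phax had a log2 fold change of 0.04. Of 3 tested genes of lysine breakdown none passed the test, and 1 had an unadjusted p under 0.05, beside 3781 of all 15847 genes tested. It was Gcdh, which handles glutaryl-CoA (0.23 ± 0.09, edgeR quasi-likelihood, adjusted p = 0.161). Aadat was at 0 everywhere.

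Aldh4a1 (ENSMUSG00000028737, chr4:139622866-139649690), which completes the conversion of proline to glutamate, was at 49.4, 54.1 and 47.3 CPM in CAAHR and at 62.3, 61.7 and 57.9 CPM in GFP. The CAAHR libraries were all below the GFP libraries, but the log2 fold change of -0.27 ± 0.09 (95% interval -0.47 to -0.07) had an adjusted p of 0.103 (edgeR quasi-likelihood). Gm21969, whose exons overlap those of Aldh4a1 by a summed 1595 bases on the same strand, had at most 7 counts in any library. Of 7 tested genes of proline and ornithine metabolism none passed the test. An unadjusted p under 0.05 was found for 2 of them, beside 3781 of all 15847 genes tested. Aldh18a1, which makes the proline precursor, had the smallest p (-0.65 ± 0.19, edgeR quasi-likelihood, adjusted p = 0.0681). Aldh6a1 (ENSMUSG00000021238, chr12:84430717-84451004) forms propionyl-CoA from a valine product. Its exons overlap those of Bbof1 on the other strand by a summed 1078 bases. Aldh6a1 was at 149.2, 142.4 and 140.2 CPM in CAAHR and at 161.8, 170.2 and 129.0 CPM in GFP. The groups overlapped, and its log2 fold change was -0.09 ± 0.12 (95% interval -0.36 to 0.17; edgeR quasi-likelihood, adjusted p = 0.694). None of the 23 tested genes of valine, leucine and isoleucine breakdown passed the test. An unadjusted p under 0.05 was found for 3 of them, beside 3781 of all 15847 genes tested. Pcca, a subunit of propionyl-CoA carboxylase, had the smallest p (-0.33 ± 0.09, edgeR quasi-likelihood, adjusted p = 0.0542).

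Aldh1l1 (ENSMUSG00000030088, chr6:90486427-90600203), the cytosolic formyltetrahydrofolate dehydrogenase, was lower in CAAHR. It was at 5.12, 4.64 and 5.43 CPM in CAAHR replicates 31, 34 and 36 and at 8.12, 7.67 and 10.045 CPM in GFP replicates 42, 43 and 46. Every CAAHR library was below every GFP library. The log2 fold change was -0.77 ± 0.14 (SE, n = 3 per group; 95% interval -1.09 to -0.44), the smallest adjusted p of the family at 0.0136 (edgeR quasi-likelihood), and the test was not passed without GFP replicate 46 (adjusted p = 0.0552). The exons of the antisense gene Gm15756 overlap those of Aldh1l1 by a summed 499 bases. Gm15756 had 109, 175 and 118 counts in CAAHR and 132, 128 and 157 in GFP. Aldh1l1 had 259, 265 and 331 in CAAHR and 392, 319 and 532 in GFP. Without strand such reads cannot be told apart. Of 19 tested genes of folate one-carbon metabolism 1 passed, beside 4.57% of genes that were lower. This was Shmt1, the cytosolic serine hydroxymethyltransferase (-0.90 ± 0.16; edgeR quasi-likelihood, adjusted p = 0.00897), which was at 4.65, 5.67 and 4.04 CPM in CAAHR and at 9.18, 9.64 and 8.01 CPM in GFP. With the slow fibre covariate Shmt1 was at -0.48 ± 0.25 and no longer passed (edgeR quasi-likelihood, adjusted p = 0.341), but marker level and group cannot be told apart. The median log2 fold change of that list was -0.15. An unadjusted p under 0.05 was found for 7 of the 19, beside 3781 of all 15847 genes tested (edgeR quasi-likelihood). In 7 the CAAHR libraries were all below the GFP libraries, beside 14.9% of all genes, and in 2 all above, beside 15.0%. Aldh1l1 is also known as a glial marker in brain. The summed CPM of 8 Schwann cell markers was 51.4 to 84.6 in CAAHR and 82.2 to 141.4 in GFP. None of the 8 passed the test, and 3 had an unadjusted p under 0.05, beside 3781 of all 15847 genes tested. The part of Schwann cells in the Aldh1l1 difference was not tested.

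Aldh9a1 (ENSMUSG00000026687, chr1:167349991-167368532), which supplies the butyrobetaine used for carnitine, was at 10.8, 7.93 and 12.3 CPM in CAAHR and at 6.65, 7.21 and 4.98 CPM in GFP. The groups did not overlap, but replicates 34 of CAAHR and 43 of GFP were close. The log2 fold change of 0.72 ± 0.19 (95% interval 0.29 to 1.15) had an adjusted p of 0.0524 (edgeR quasi-likelihood) and was under the threshold in 5 of 15 alternatives, among them the fit without CAAHR replicate 34 (adjusted p = 0.00820). Of 5 tested genes of carnitine synthesis and uptake 1 passed, beside 3.04% of genes that were higher. Tmlhe, the first enzyme of carnitine synthesis, was at 8.29, 5.71 and 6.73 CPM in CAAHR and at 3.75, 4.23 and 3.98 CPM in GFP (0.79 ± 0.16; edgeR quasi-likelihood, adjusted p = 0.0200). That call was lost when replicate 31 or 36 of CAAHR or replicate 42 or 46 of GFP was left out, with an adjusted p of at most 0.0735. When slow fibre marker level was a covariate, Tmlhe was at 0.35 ± 0.26 (edgeR quasi-likelihood, adjusted p = 0.517) and Aldh9a1 at 0.33 ± 0.34 (adjusted p = 0.672). That marker level cannot be told apart from the group. The log2 fold changes of the 5, which do not include Aldh9a1, had a median of 0.39. An unadjusted p under 0.05 was found for 3 of the 5, beside 3781 of all 15847 genes tested (edgeR quasi-likelihood).

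Aldh1a1 (ENSMUSG00000053279, chr19:20492715-20643465), a cytosolic enzyme that makes retinoic acid from retinal, was lower in CAAHR. It was at 145.3, 109.0 and 107.6 CPM in CAAHR replicates 31, 34 and 36 and at 159.1, 174.0 and 182.8 CPM in GFP replicates 42, 43 and 46. The groups did not overlap, and CAAHR replicate 31 was nearest to the GFP libraries. The log2 fold change was -0.51 ± 0.13 (95% interval -0.81 to -0.21; edgeR quasi-likelihood, adjusted p = 0.0473), and leaving out any library but CAAHR replicate 31 took it past the threshold, to an adjusted p of at most 0.163. Of 15 tested genes of retinoid metabolism 1 passed, Rbp4, the carrier of retinol in blood, which was lower in CAAHR, beside 4.57% of all genes (-1.80 ± 0.45; edgeR quasi-likelihood, adjusted p = 0.0455). It lost that call in the fits that left out any library but GFP replicate 43, with an adjusted p of at most 0.132 (edgeR quasi-likelihood). An unadjusted p under 0.05 was found for 3 of the 15, beside 3781 of all 15847 genes tested (edgeR quasi-likelihood). The summed CPM of 9 adipocyte markers was 154, 108 and 177 in CAAHR and 263, 131 and 223 in GFP, and 3 of the 9 (Retn, Cfd and Plin1) were lower, beside 4.57% of all genes. Their part in the Aldh1a1 and Rbp4 differences was not tested.

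Aldh3a2 (ENSMUSG00000010025, chr11:61223417-61267464), the fatty aldehyde dehydrogenase of the endoplasmic reticulum, was at 13.7, 12.1 and 14.6 CPM in CAAHR and at 11.5, 11.5 and 9.91 CPM in GFP. The groups did not overlap, but the log2 fold change of 0.30 ± 0.12 (95% interval 0.03 to 0.56) had an adjusted p of 0.160 (edgeR quasi-likelihood). Among 11 tested genes of fatty aldehyde and ether lipid metabolism 2 passed, both lower, beside 4.57% of all genes. They were Tmem189, which forms the vinyl ether bond of plasmalogens (-0.58 ± 0.10; edgeR quasi-likelihood, adjusted p = 0.00851), and Hacl1, a peroxisomal lyase of fatty acid alpha-oxidation (-0.65 ± 0.12; edgeR quasi-likelihood, adjusted p = 0.0133). Neither passed with the slow fibre covariate (-0.42 ± 0.18 and -0.66 ± 0.24, edgeR quasi-likelihood, adjusted p = 0.265 and 0.189). For Hacl1 the size hardly moved, while the SE grew for both. Marker level and group cannot be told apart in these libraries, so the part of slow fibres in either difference was not tested. An unadjusted p under 0.05 was found for 4 of the 11, beside 3781 of all 15847 genes tested (edgeR quasi-likelihood).

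Of the remaining 11 ALDH genes 8 were tested and 1 passed, lower in CAAHR, beside 4.57% of all genes. In 5 of the 8 the CAAHR libraries were all below the GFP libraries, beside 14.9% of all genes. Aldh1a7, a rodent copy of Aldh1a1, had only 6, 7 and 11 counts in CAAHR and 31, 12 and 42 in GFP (log2 fold change -2.02 ± 0.47; edgeR quasi-likelihood, adjusted p = 0.0314), and the test was passed in 1 of 6 fits that left out a library, the one without GFP replicate 43. Without the others its adjusted p was at most 0.124. The median log2 fold change of the 8 was -0.45. Aldh1a1 and Aldh1a7 were similar enough that 151 of the 2493 stretches of 50 bases in Aldh1a1 transcripts also occurred in Aldh1a7, but no stretch of 150 bases did. Aldh8a1, Aldh3b2 and Aldh3b3 had too few counts to be tested.

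**Figure D4:**
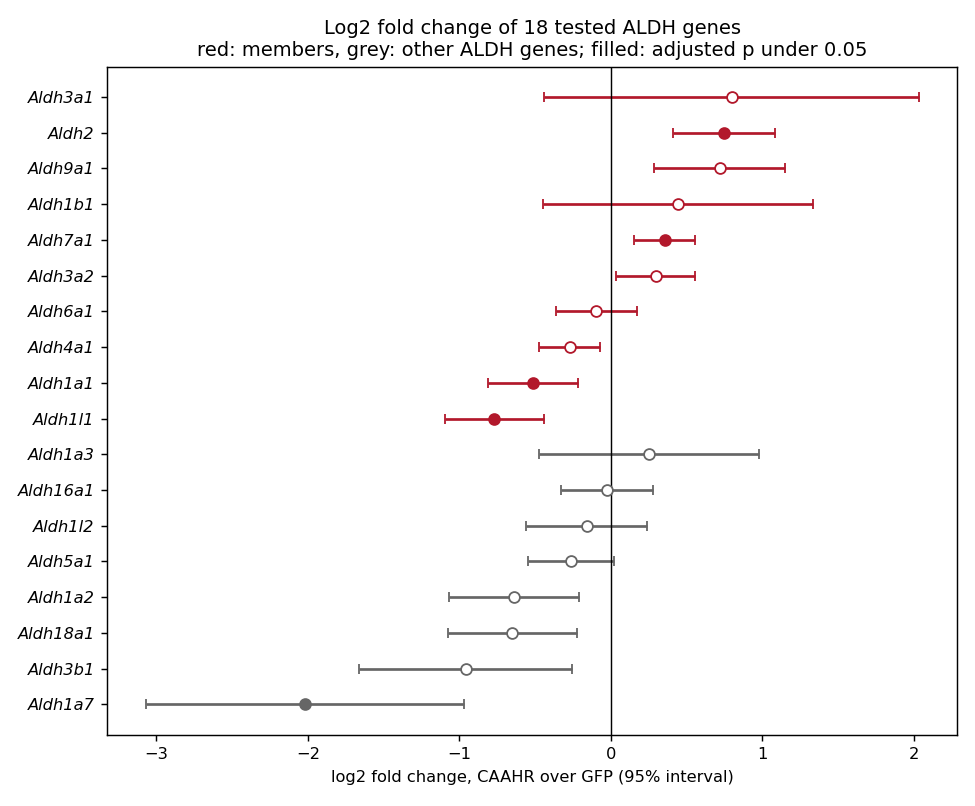
Log2 fold change of CAAHR over GFP (horizontal axis, with the 95% interval) for the 18 tested ALDH genes, members in red and other ALDH genes in grey, filled where the adjusted p was under 0.05. Aldh2 and Aldh7a1 were above 0, at 0.75 and 0.36, and Aldh1a1, Aldh1l1 and Aldh1a7 below 0, at -0.51, -0.77 and -2.02.

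Levels of different genes were compared as CPM per kilobase of exon. In GFP muscle the order was Aldh1a1 (34.8), Aldh6a1 (26.6), Aldh2 (17.4), Aldh4a1 (12.4) and Aldh7a1 (5.38), each above the next in all libraries. Aldh3a2, Aldh1l1 and Aldh9a1 followed at 1.95, 1.91 and 1.86 with overlapping ranges, then Aldh3a1 (0.213) and Aldh1b1 (0.127). In CAAHR muscle Aldh2 (29.3), Aldh6a1 (24.9) and Aldh1a1 (24.4) overlapped at the top, followed by Aldh4a1 (10.2) and Aldh7a1 (6.88). Aldh9a1 (3.05) and Aldh3a2 (2.40) overlapped, Aldh1l1 was at 1.12, and Aldh3a1 (0.375) and Aldh1b1 (0.172) overlapped. The order at the top depended on the length used. With the median length of coding transcripts, 802 bases for Aldh2 because of its short annotated forms, Aldh2 was first in both groups (111 in GFP and 187 in CAAHR). With the longest coding transcript, 3867 bases, it was in position 3 in both (23.0 and 38.8). Both lengths were added after the data were seen, the longest after the result with the median.

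The ratio of Aldh2 to Aldh1a1 within a library does not depend on scaling between libraries. In CPM it was 1.10, 1.10 and 1.58 in CAAHR replicates 31, 34 and 36 and 0.478, 0.529 and 0.542 in GFP replicates 42, 43 and 46. Aldh2 was higher and Aldh1a1 lower in every CAAHR library than in every GFP library. The ratio therefore had to separate the groups and adds no support. The summed CPM of the 10 members was 570, 485 and 537 in CAAHR and 513, 554 and 522 in GFP, so the groups overlapped in the family total. With each gene taken per kilobase of exon, Aldh2 gave 28.2, 25.0 and 31.8% of the family sum in CAAHR and at most 19.0% in any GFP library. The size of these shares depends on the length used, as the order did. They draw on the same Aldh2 and Aldh1a1 differences as the ratio and add no support.

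**Figure D5:**
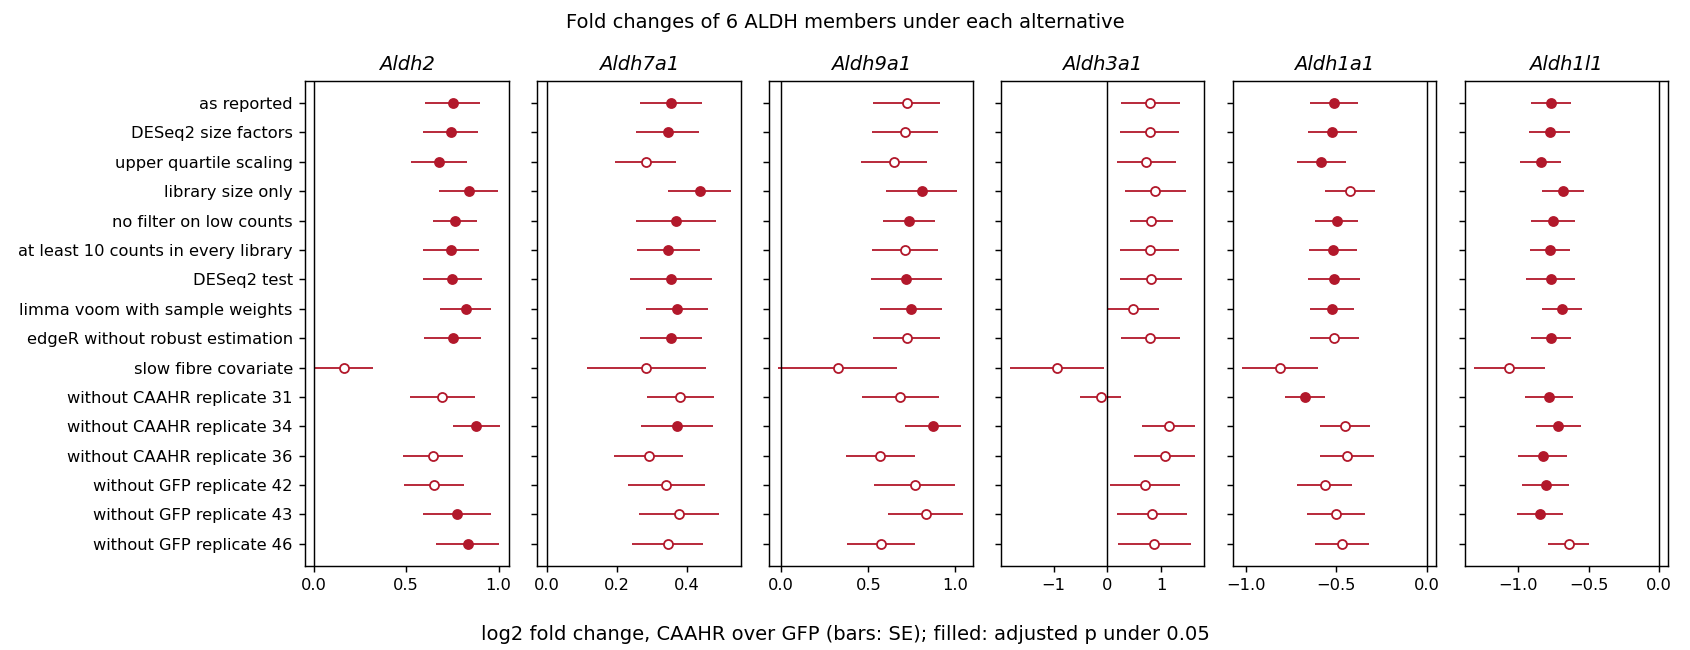
Log2 fold change of CAAHR over GFP (horizontal axes, bars show the SE) of 6 ALDH members as reported and under 15 alternatives (one per line), filled where the adjusted p was under 0.05. Aldh2 ranged from 0.16 with the slow fibre covariate to 0.88 without CAAHR replicate 34, and Aldh3a1 fell below 0 with the covariate and without CAAHR replicate 31.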

How the data were processed

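Poly(A) RNA of 6 gastrocnemius muscles, 3 CAAHR and 3 GFP, was sequenced as paired ends. The table deposited by the authors held counts of reads for each gene, not normalised, which they made by trimming reads (Trimmomatic 0.36), aligning them to GRCm38 (STAR 2.5.2b) and counting reads in exons. Counting followed strand where the library kept it, per the study's methods, but whether these libraries did was not stated. Groups came from the sample titles, and no library repeated another (within groups, chi-square over its degrees of freedom was 21.6 or more). Genes without a symbol (174, 0.0154% of counts) were kept.

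Counts were filtered with filterByExpr, scaled by TMM and tested in edgeR 4.0.16 (R 4.3.3) with a robust quasi-likelihood fit on all 6 libraries and Benjamini-Hochberg adjustment over 15847 genes. Standard errors were the log2 fold change over the root of F. On simulated data for this comparison (15598 genes) the test called 72.7% of genes changed 2-fold and 92.8% of those changed 4-fold, and 7.43% of its calls were unchanged genes. Intervals and floors (3 counts) cover counting error or spread between libraries only. Alternatives were 3 other scalings, 2 filters, DESeq2 1.42.0, limma 3.58.1 voom, no robust estimation, a slow fibre covariate and each library left out.

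Named were all 10 members, every other ALDH or pathway gene with an adjusted p under 0.05 (the smallest p where there was none), and the 3 genes of at least 50 mean counts most correlated with Aldh2 and with Aldh3a1. Members and lists were chosen with earlier results of these data known. Positions and lengths came from GENCODE M21 (GRCm38), promoters from RefSeq. Overlaps with other genes were summed over every annotated exon of the other gene, so shared bases can be counted more than once.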

Additional observations from a re-analysis of the deposited data

How the results depend on the processing

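No paired analysis was possible because no replicate number occurred in both groups. Of 150 refits of single members, 119 kept their direction and side of the threshold, 21 lost the call, 6 gained it and 4 changed sign; of 163 for other named genes, 140 kept both and 23 lost the call. The 4 changes of sign were Aldh1b1 at -0.29, Aldh3a1 at -0.93 and Aldh6a1 at 0.0022 with the slow fibre covariate, and Aldh3a1 at -0.12 without CAAHR replicate 31, while without CAAHR replicate 34 it was 1.14. With that covariate 436 genes passed in place of 1205, 345 in place of 551 at over 2-fold, 0 in place of 4 members, 0 other ALDH genes and 5 in place of 10 pathway genes. With it the difference on the log2 scale shrank for Aldh2 (0.16 ± 0.16) and Aldh7a1 (0.29 ± 0.17) but grew, with a wider SE, for Aldh1l1 (-1.06 ± 0.25), Aldh1a1 (-0.81 ± 0.21) and Aldh1a7 (-2.44 ± 0.93). Without a filter on low counts 2470 genes passed, 1008 at over 2-fold, 5 members, 5 in place of 1 other ALDH gene and 19 pathway genes. DESeq2 gave 1932, 858, 5, 3 and 16, upper quartile scaling 3 other ALDH genes, and the filter of 10 counts in every library and voom 0 each. Among the scalings, upper quartile dropped Aldh7a1 and added Aldh4a1, and library size alone dropped Aldh1a1 and added Aldh9a1. Leaving out 1 library gave 530 (without CAAHR replicate 36) to 1727 genes (without CAAHR replicate 34), 335 to 740 at over 2-fold, 1 to 4 members, 0 to 2 other ALDH genes and 8 to 14 pathway genes. Fits for pathway and AHR set genes were added after the data were seen. The cause was not tested. Aldh1b1 and Aldh3a1 rested on 10 to 72 counts per library, where counting error is largest among the members.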

Other observations

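Across the 6 libraries the genes most like Aldh3a1 in log2 CPM, among 12308 compared, were Iqsec1 (Pearson r = 0.992), Fam117b (r = 0.987) and 2810474O19Rik (r = 0.984), and 21 genes had r over 0.95. All 3 were highest in CAAHR replicate 31, the library that was highest in Aldh3a1, so the likeness rests on that library. 2810474O19Rik was at 27.5 CPM there and between 9.40 and 12.04 CPM in the other libraries.

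Of 8 B cell and plasma cell markers 5 were lower in CAAHR than in GFP muscle (edgeR quasi-likelihood, adjusted p under 0.05), beside 4.57% of all genes tested. Their summed CPM was 11.2 to 19.8 in CAAHR and 145 to 579 in GFP. The paper attributed a local immune response to the GFP virus, from a comparison with mice given no virus. Of 3 tested T and NK cell markers 1, Lck, was lower, beside the same 4.57%. Of 10 macrophage markers none passed the test, while 8 had an unadjusted p under 0.05, beside 3781 of all 15847 genes tested. Their sums were 27.6 to 47.0 CPM in CAAHR against 54.7 to 119.5 CPM in GFP. Of 12 fast fibre markers 2, Tnnt3 and Tnni2, were lower, again beside 4.57%. None of 9 endothelial or 10 fibroblast markers passed the test. An unadjusted p under 0.05 was found for 1 and 2 of them, beside the same 3781 of 15847 genes. Of 7 hepatocyte markers 1, Alb, was tested and did not pass. The part of these cells in the ALDH differences was not tested.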
